A study of Mus musculus with 12 samples.

Results

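The interferon regulatory factors (IRFs) are a family of transcription factors that carry a shared DNA-binding domain and switch on, or hold down, interferon genes and the genes that interferons induce. The 8 genes IRF1, IRF2, IRF3, IRF4, IRF5, IRF7, IRF8 and IRF9 were taken by their symbols from the 23636 gene symbols of a table. The table holds transcript levels in CT26, a mouse colon carcinoma cell line. No cutoff on a measured value picked the members, but the family was chosen with earlier results of these data known. Symbols are in upper case as in the table, although the genes are those of the mouse. Levels are given as TPM, a share of all transcripts that is scaled for transcript length and for the total of each library, so that levels of different genes can be compared.

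The 12 libraries formed 4 groups of 3 labelled biological replicates. These were cells with no treatment, cells given CX3CL1 (2 µg/ml), cells given IFN-γ (100 ng/ml), and cells given CX3CL1 and IFN-γ. The exposure was 8 hours. For the combined treatment, the results text of the study has CX3CL1 given after IFN-γ and TNF-α. The labels and the figure legend name CX3CL1 and IFN-γ, with no order and no TNF-α. CX3CL1 is a chemokine whose receptor is CX3CR1, and IFN-γ is the type II interferon. All groups were the same cultured line, the labels name no vehicle for the untreated cells, and separate lines or animals were not compared. The doses and the time come from the study's methods and legends, not from the labels.

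Each library summed to 1000000 TPM, and between 10613 and 10824 symbols reached 1 TPM. Read depth cannot be recovered from TPM, no counting interval is given, and the precision of every level below is the spread between 3 replicates. Replicates correlated at r = 0.984 to 0.996 on the log2(TPM + 1) scale over the tested genes, and no pair was identical. EPCAM, an epithelial adhesion molecule, was listed at 0 in all 12 libraries and KRT8, an epithelial keratin, reached at most 0.364 TPM, whereas KRT18, another epithelial keratin, was between 18.4 and 53.6 TPM and VIM, the mesenchymal filament vimentin, between 1684 and 4831 TPM. KRT18 fell with IFN-γ (log2 fold change -0.68, adjusted p = 0.0346 in the limma fit described below), and the part this had in other results was not tested. Of the leukocyte markers, CD3E was listed at 0 throughout and PTPRC, which encodes CD45, reached at most 0.0441 TPM. The summed level of the 12 leukocyte markers was 24.9 to 31.4 TPM without treatment, 28.6 to 50.0 TPM with CX3CL1, 28.3 to 38.0 TPM with IFN-γ and 32.3 to 44.4 TPM with both, and most of it was CD14 at 23.7 to 47.5 TPM.

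Members of the IRF family differ in how they are controlled. IRF3, IRF5 and IRF7 wait in the cytoplasm until kinases downstream of nucleic acid sensors phosphorylate them, and they then induce type I interferons. IRF9 joins STAT2 in the complex ISGF3, which carries the type I interferon signal to the nucleus, while IRF1 is itself an early product of IFN-γ signalling and IRF2 competes with it for the same DNA sites. IRF4 and IRF8 are best known from lymphocytes and myeloid cells.

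Sequence before the transcription starts was read from RefSeq promoters of the mouse build GRCm38.p6, in which all 8 genes were found, with 11 starts. The 250 bases before each start were searched on both strands for the interferon-γ-activated site known as GAS (TTCNNNGAA), for the interferon-stimulated response element (ISRE, searched as GAAA, any 2 bases and GAAA again) and for the NF-kB consensus. Among all 32851 promoters of the same length, 7.02% held a GAS match, 2.98% an ISRE match and 7.25% an NF-kB match. Of the 8 IRF genes, 3 held a GAS match (IRF1, IRF2 and IRF8), 1 an ISRE match (IRF2) and 2 an NF-kB match (IRF1 and IRF2). Counted by promoter, as the shares above are, these were 3, 1 and 2 of 11. None of the matches overlapped another. A match is a string of letters and not a measured binding site, and the libraries hold no binding data.

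The promoter of IRF1 is shown in full because this gene is the IFN-γ-responsive member with matches in the searched window. It belongs to the first of 2 RefSeq starts, and the other start had no match. It lies on chromosome 11, plus strand, at chr11:53769764-53770013, and 71.2% of its bases are G or C. The capitals mark the GAS match at bases -90 to -82 from the start and the NF-kB match at bases -13 to -4.
IRF1 promoter: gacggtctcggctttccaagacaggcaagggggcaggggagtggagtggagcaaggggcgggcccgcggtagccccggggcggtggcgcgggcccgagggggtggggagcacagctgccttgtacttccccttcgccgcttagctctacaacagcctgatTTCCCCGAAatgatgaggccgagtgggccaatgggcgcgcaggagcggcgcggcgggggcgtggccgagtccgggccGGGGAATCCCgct

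Short windows of IRF2 and IRF8 are set beside it, because these 2 genes held the same kind of match as IRF1 and their levels differed from those of IRF1 in the results that follow. The capitals mark the ISRE match of IRF2 (chr8:46739496-46739521), the GAS match of IRF2 (chr8:46739513-46739537) and both GAS matches of IRF8 (chr8:120736179-120736203 and chr8:120736197-120736221), all printed on the plus strand of GRCm38.p6.
IRF2 ISRE window: ggggaagtGAAAATGAAAttgacttt
IRF2 GAS window: attgacttTTCCGAGAAatgatgaa
IRF8 upstream GAS window: aaagtgatTTCTCGGAAagagagcg
IRF8 downstream GAS window: gagagcgcTTCAGAGAAggcggatt

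**Figure D1:**
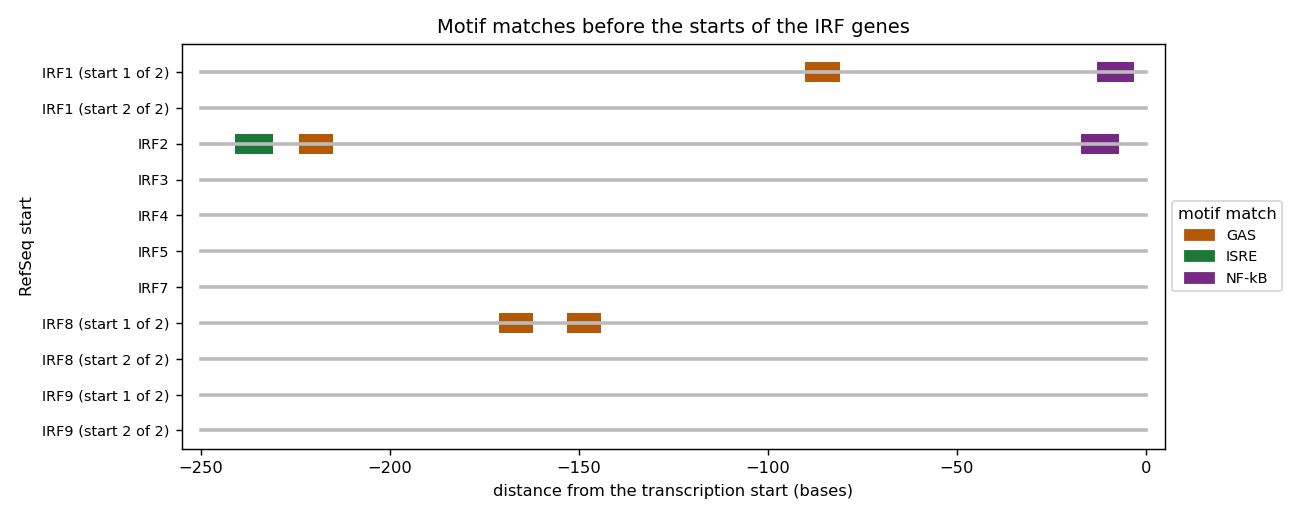
Positions of motif matches in the 250 bases before each RefSeq start of the 8 IRF genes, with the distance from the start in bases on the horizontal axis and 1 line per start. Matches were found for IRF1, IRF2 and IRF8, and the lines of the other 5 genes carry none.

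In untreated CT26 cells the 8 genes ranged in mean from listed at 0 for IRF4 to 59.2 TPM for IRF7. The level of IRF7 was 59.2 ± 47.2 TPM (mean ± SD, n = 3 in this and every following value), IRF2 at 34.5 ± 2.20 TPM, IRF3 at 28.2 ± 2.94 TPM, IRF9 at 26.2 ± 3.72 TPM and IRF1 at 19.6 ± 0.884 TPM. IRF5 and IRF8 were low, at 0.724 ± 0.119 TPM and 0.515 ± 0.210 TPM. IRF4 was listed at 0 in 11 of the 12 libraries and at 0.00837 TPM in IFN-γ replicate 2, so it was not tested and no change is given for it. IRF7 had a wide spread, at 112, 21.6 and 43.7 TPM in untreated replicates 1, 2 and 3. It was the highest member in replicates 1 and 3 and lay below IRF2, IRF3 and IRF9 in replicate 2.

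Changes were estimated with limma on log2(TPM + 1), with all 12 libraries in the fit, for the 11878 genes whose mean reached 0.2 TPM, which included 7 of the 8 IRF genes. A gene was called when its p-value, adjusted by Benjamini-Hochberg over all genes tested, was under 0.05. On this scale the change of a gene at low TPM is understated, which applies to IRF5 and IRF8. An exact permutation test of 3 against 3 libraries cannot go below p = 0.1, so none was used for single genes. In bulk RNA, fewer cells that express a gene and less RNA per cell cannot be told apart.

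**Figure D2:**
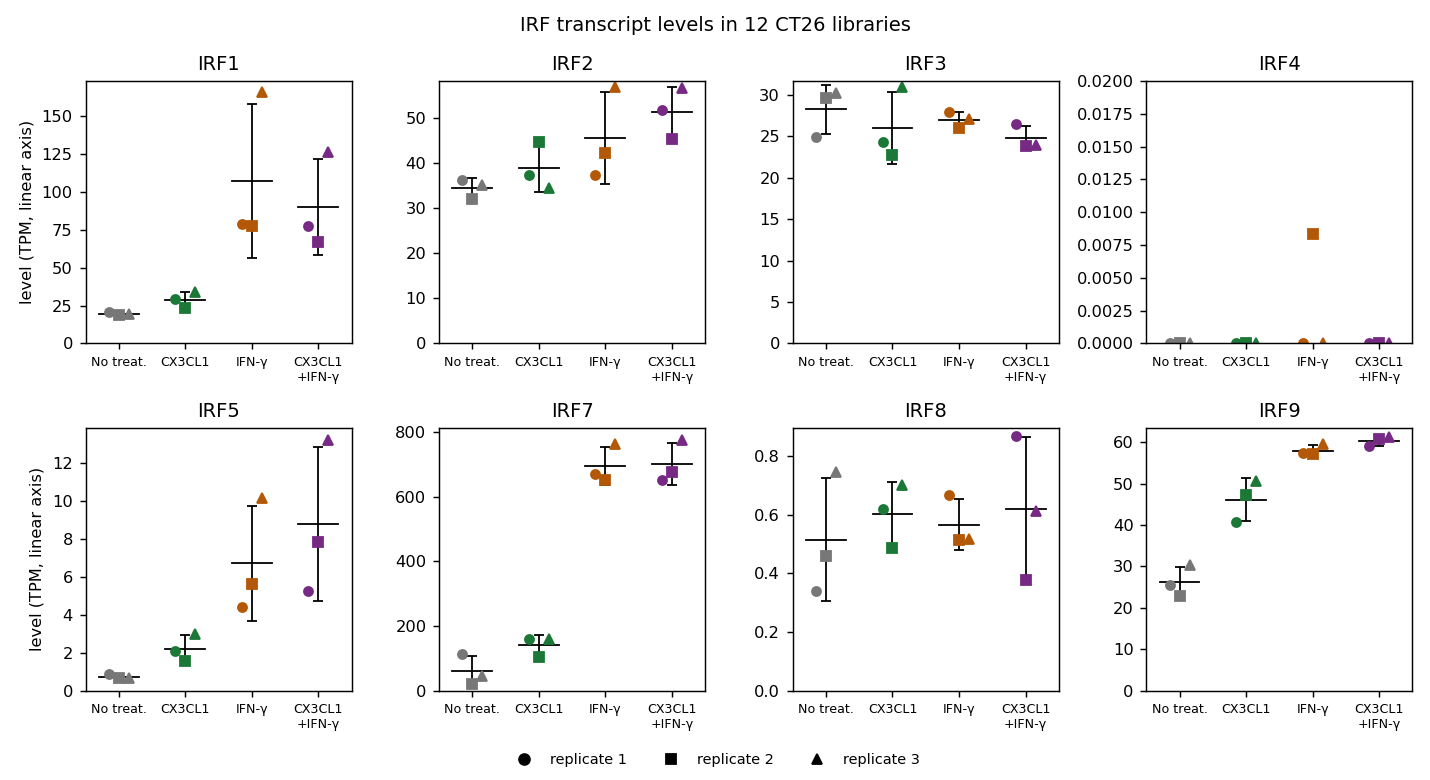
Level of each of the 8 IRF genes in TPM (linear axes starting at 0, each with its own range) in the 12 libraries, with 1 symbol per replicate, a horizontal line at the group mean and bars of 1 SD (none for IRF4). IRF7 was at 652 TPM or more in the 6 libraries with IFN-γ, IRF9 stood apart from untreated cells in every treated library, and IRF3 lay between 22.7 and 30.9 TPM in all 12.

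The comparison of IFN-γ with no treatment asked which genes the cytokine changed alone. IRF7, IRF1, IRF5 and IRF9 rose, while IRF2, IRF3 and IRF8 did not pass the test. The 4 called members out of 7 tested stand against 7.85% of all genes tested that were called in either direction, and 5.91% that were called higher. All 4 had groups that did not overlap, as did IRF2, which made 5 members higher without overlap against 20.6% of all genes tested. The median log2 fold change was 1.12 over the 7 members and 0.03 over all genes tested. Of the 932 genes called, 702 were higher and 230 lower. This split became 640 and 351 with median-ratio scaling and 569 and 538 with quantile normalization, and the count with a term for the replicate number was 1929. The 4 IRF calls held under each of these.

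IRF7, the amplifier of type I interferon production, had the largest change of the family with IFN-γ. It was at 112, 21.6 and 43.7 TPM in untreated replicates 1, 2 and 3 and at 672, 652 and 764 TPM with IFN-γ. Every IFN-γ library was several times above the highest untreated library, and the ratio of the group means was 11.8. The log2 fold change was 3.84 (SE 0.41, 95% interval 2.96 to 4.72, adjusted p = 5.2e-05), which ranked 29 from the highest of 11878 genes. IRF7 made up 17.2% to 50.9% of the summed TPM of the 8 genes in untreated libraries and 70.5% to 76.5% with IFN-γ. The sum itself went from 126 to 221 TPM to 861 to 1084 TPM.

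IRF1, the factor that IFN-γ signalling induces early, was at 20.5, 18.7 and 19.4 TPM without treatment and at 78.7, 77.6 and 166 TPM with IFN-γ. The untreated libraries lay close together, and IFN-γ replicate 3 stood well above the other two. IRF1 rose by 2.31 on the log2 scale (SE 0.28, 95% interval 1.70 to 2.91, adjusted p = 1.5e-04), with a ratio of means of 5.49 and rank 110. Its group mean with IFN-γ was 107 ± 50.7 TPM.

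IRF5, which acts downstream of MYD88 in immune cells, started near the bottom of the scale at 0.860, 0.643 and 0.670 TPM and reached 4.40, 5.60 and 10.1 TPM with IFN-γ. Its replicates with IFN-γ spread as those of IRF1 did, with replicate 3 the highest, and did not overlap the untreated ones. The log2 fold change of TPM + 1 was 2.09 (SE 0.30, adjusted p = 5.4e-04), and the ratio of the means was 9.27. Adding 0.1 rather than 1 before taking logs gave a log2 fold change of 2.97. IRF5 remained far below IRF7 and IRF1 in level in each IFN-γ library.

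IRF9, the DNA-binding subunit of ISGF3, changed less in fold than the other 3 and had the smallest standard error of the 4. It was at 25.5, 22.9 and 30.3 TPM without treatment and at 57.4, 57.1 and 59.5 TPM with IFN-γ, so the groups lay far apart in relation to their spread. The log2 fold change was 1.12 (SE 0.11, 95% interval 0.88 to 1.36, adjusted p = 2.9e-05), with a ratio of means of 2.21 and rank 281. STAT2, a partner in ISGF3, rose by 2.64 on the log2 scale (adjusted p = 7.6e-06).

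IRF2, the competitor of IRF1, was at 36.3, 32.1 and 35.2 TPM in untreated cells and at 37.4, 42.2 and 57.0 TPM with IFN-γ. The groups did not overlap, but by a narrow margin, and the log2 fold change of 0.37 (SE 0.15, 95% interval 0.04 to 0.70) did not pass the test, with an adjusted p of 0.172. IRF3, the constitutive member activated by TBK1, was at 24.9, 29.6 and 30.2 TPM and at 27.9, 26.0 and 27.0 TPM, which overlapped. Its log2 fold change was -0.06 (95% interval -0.32 to 0.21, adjusted p = 0.829). IRF8 was at 0.339, 0.460 and 0.747 TPM and at 0.667, 0.512 and 0.518 TPM, with a log2 fold change of 0.06 (95% interval -0.23 to 0.34, adjusted p = 0.853). Its sign was negative with quantile normalization (-0.06), so no direction is given for it.

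The comparison of CX3CL1 with no treatment asked what the chemokine changed by itself. IRF9 rose, and it was the single member called among the 7 tested, against 1.95% of all genes tested in either direction and 1.78% higher. IRF1, IRF5 and IRF9 had groups that did not overlap, which made 3 members higher against 5.5% of all genes tested. The median log2 fold change was 0.53 over the 7 members and -0.02 over all genes tested. This comparison and the one with IFN-γ used the same untreated libraries, so the values of both rest on the same 3 samples.

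IRF9 was at 40.6, 47.3 and 50.6 TPM with CX3CL1, above the 22.9 to 30.3 TPM of the untreated libraries. All 3 treated libraries exceeded all 3 untreated ones, and the log2 fold change was 0.80 (SE 0.11, 95% interval 0.56 to 1.04, adjusted p = 0.00176), with a ratio of means of 1.76. IRF7 had a larger estimate and a wider spread. Its CX3CL1 libraries were at 159.7, 104 and 158 TPM, and the lowest of them was under untreated replicate 1 at 112 TPM.

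For IRF7 the log2 fold change with CX3CL1 was 1.52 (SE 0.41, 95% interval 0.63 to 2.40) and the adjusted p was 0.105, so the gene was not called. The call depended on the libraries and on the model. Without untreated replicate 1 the log2 fold change was 2.13 and the adjusted p 9.2e-04. Without untreated replicate 2 the log2 fold change was 0.97. In limma with all libraries and a term for the replicate number, the adjusted p was 0.0430. Untreated replicate 1 was also the highest untreated library for 20 of the 24 tested textbook IRF target genes, and the part this had in the result was not tested.

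IRF5 was at 2.10, 1.55 and 2.97 TPM with CX3CL1, each above the untreated range of 0.643 to 0.860 TPM. The ratio of means was 3.05 and the log2 fold change of TPM + 1 was 0.87 (SE 0.30, 95% interval 0.23 to 1.52), with an adjusted p of 0.277. In a fit with only the 6 libraries compared, the adjusted p was 0.0347. IRF1 was at 29.2, 23.5 and 34.0 TPM, also above all untreated libraries, with a log2 fold change of 0.53 (SE 0.28, 95% interval -0.08 to 1.13, adjusted p = 0.778) and a ratio of means of 1.48. Its adjusted p was 0.221 in the fit with only the 6 libraries compared, and none of the 20 alternatives called it.

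The remaining members overlapped between CX3CL1 and untreated cells. IRF2 was at 37.5, 44.8 and 34.5 TPM with CX3CL1 (log2 fold change 0.16, adjusted p = 1.00), IRF3 at 24.3, 22.7 and 30.9 TPM (log2 fold change -0.12, adjusted p = 1.00) and IRF8 at 0.619, 0.488 and 0.703 TPM (log2 fold change 0.09, adjusted p = 1.00). A p-value that misses the threshold does not show that these levels were equal, and the intervals allowed changes in IRF2 from -0.16 to 0.49 and in IRF3 from -0.39 to 0.14.

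**Figure D3:**
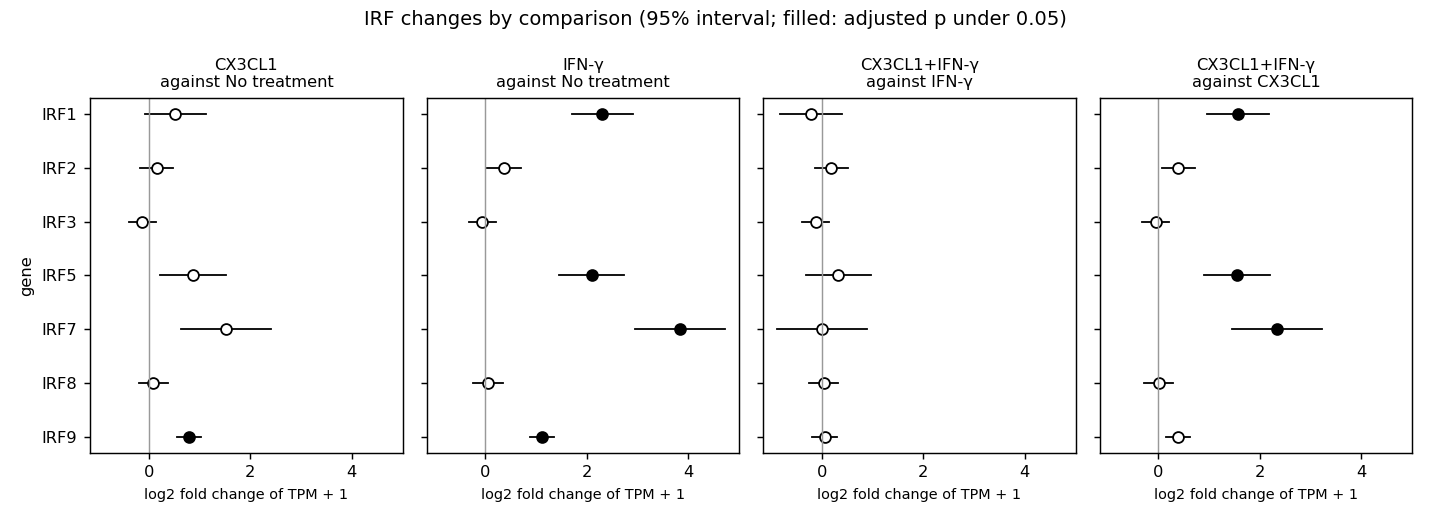
Log2 fold change of TPM + 1 with its 95% interval for the 7 tested IRF genes in 4 comparisons, with filled points where the adjusted p was under 0.05. Filled points are IRF9 with CX3CL1, IRF1, IRF5, IRF7 and IRF9 with IFN-γ, none when CX3CL1 was added to IFN-γ, and IRF1, IRF5 and IRF7 when IFN-γ was added to CX3CL1.

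The comparison of CX3CL1 and IFN-γ together with IFN-γ alone asked what CX3CL1 changed in cells that were also given IFN-γ. No member was called by limma, none of the 7 had an unadjusted p under 0.05, and the adjusted p-values ran from 0.975 to 0.998. Over all genes tested, 0.362% were called in either direction, which is 43 genes, and 95 were called with a term for the replicate number. No member had groups without overlap in the higher direction, against 8.54% of all genes tested.

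With both agents IRF7 was at 653, 676 and 775 TPM, close to its 652 to 764 TPM with IFN-γ alone. The log2 fold change was 0.01, with a 95% interval from -0.87 to 0.89. That interval rests on a spread pooled over all groups, including the untreated libraries at 112, 21.6 and 43.7 TPM. Its width therefore does not describe the libraries compared here alone. In the 20 alternatives described at the end, the IRF7 value ran from -0.063 to 0.080. IRF9 was at 59.1, 60.7 and 61.3 TPM, which gave 0.06 with a narrow interval from -0.18 to 0.30. Of the 4 members that IFN-γ raised, IRF9 had the narrowest interval in this comparison.

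IRF1 was at 77.7, 66.9 and 126 TPM with both agents (log2 fold change -0.21, 95% interval -0.81 to 0.40) and IRF5 at 5.26, 7.84 and 13.2 TPM (0.33, 95% interval -0.31 to 0.97). In both genes replicate 3 was the highest of its group, as it was with IFN-γ alone, and leaving out IFN-γ replicate 3 turned the IRF1 value to 0.15. IRF2 was at 51.9, 45.5 and 56.8 TPM (0.19), IRF3 at 26.4, 23.8 and 24.0 TPM (-0.12) and IRF8 at 0.867, 0.378 and 0.612 TPM (0.04).

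The comparison of both agents with CX3CL1 alone asked what IFN-γ changed in cells that had CX3CL1. IRF7, IRF1 and IRF5 rose, which is 3 of the 7 members tested against 4.7% of all genes tested in either direction and 3.76% higher. Their log2 fold changes were 2.33 (SE 0.41, adjusted p = 0.00527), 1.57 (SE 0.28, adjusted p = 0.00573) and 1.55 (SE 0.30, adjusted p = 0.00912). IRF2 and IRF9 also had groups that did not overlap, so 5 members were higher without overlap against 14% of all genes tested. The 558 genes called in all were 447 higher and 111 lower, which became 357 and 187 with median-ratio scaling and 352 and 224 with quantile normalization, and 1369 genes were called with a term for the replicate number.

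IRF9 differed by 0.38 in that comparison (SE 0.11, 95% interval 0.14 to 0.62), from a mean of 46.2 ± 5.09 TPM with CX3CL1 to 60.4 ± 1.14 TPM with both. Its adjusted p was 0.0732, and 0.0225 with the replicate block. IRF2 differed by 0.39 (SE 0.15, adjusted p = 0.181), IRF3 by -0.06 (adjusted p = 0.867) and IRF8 by 0.01 (adjusted p = 0.988). The sign of the IRF8 value was negative with median-ratio scaling (-0.02) and quantile normalization (-0.11).

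Whether the CX3CL1 effect differed between cells without and with IFN-γ was tested as an interaction. No gene and no IRF member was called by limma after adjustment, although 273 genes and 2 of the 7 members had an unadjusted p under 0.05. These members were IRF9, with a difference of -0.74 on the log2 scale (SE 0.16, 95% interval -1.08 to -0.40, adjusted p = 0.202, and 0.0452 with the replicate block, which called 52 genes), and IRF7, with -1.51 (SE 0.58, adjusted p = 1.00). IRF1 had -0.73 (SE 0.39) and IRF5 -0.54 (SE 0.42). Those for IRF2, IRF3 and IRF8 lay between -0.05 and 0.02, and their signs changed with the setting.

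The order of the groups was similar for the 4 members that IFN-γ raised. IRF5 and IRF9 went from untreated to CX3CL1 to IFN-γ to both, and in each gene the first 3 groups did not overlap their neighbour while IFN-γ and both did. IRF1 had the same lower steps, with IFN-γ the highest in mean and overlapping both agents together. IRF7 overlapped between untreated and CX3CL1, and again between IFN-γ and both. For IRF2, IRF3 and IRF8 every neighbour in the order of group means overlapped.

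The balance between members shifted with these levels. The ratio of IRF1 to IRF2, an activator and a competitor at shared sites, was 0.564, 0.584 and 0.552 in untreated replicates 1, 2 and 3, and 2.10, 1.84 and 2.91 with IFN-γ. It was 0.778, 0.525 and 0.984 with CX3CL1, which overlapped the untreated range, and 1.50, 1.47 and 2.22 with both agents. IRF1 transcripts were therefore below those of IRF2 in all 6 libraries without IFN-γ and above them in all 6 with it. The ratio of IRF7 to IRF3 averaged 2.23 ± 2.01 without treatment, 5.43 ± 1.04 with CX3CL1, 25.8 ± 2.19 with IFN-γ and 28.5 ± 3.80 with both.

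Within ISGF3, the mean level of IRF9 was above that of STAT2 in untreated cells and below it in each treated group. The ratio of IRF9 to STAT2 in TPM averaged 1.20 ± 0.240 without treatment, 0.774 ± 0.182 with CX3CL1, 0.412 ± 0.0723 with IFN-γ and 0.380 ± 0.0519 with both. With CX3CL1 alone STAT2 rose by 1.42 on the log2 scale (adjusted p = 0.00288).

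**Figure D4:**
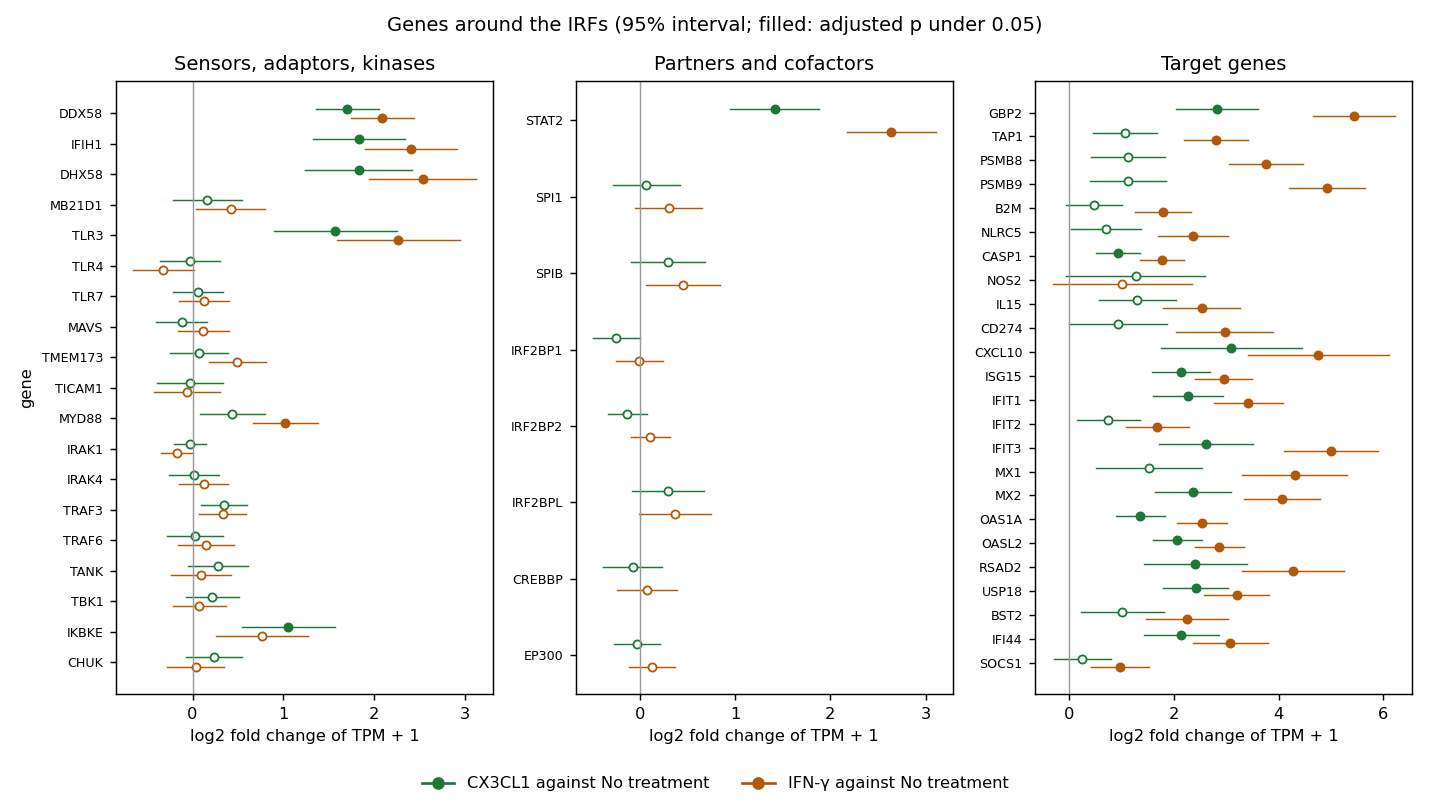
Log2 fold change of TPM + 1 with its 95% interval for tested genes that act before, with and after the IRFs, in CX3CL1 against no treatment (green) and IFN-γ against no treatment (orange), with filled points where the adjusted p was under 0.05. Points of both colours are filled for DDX58, IFIH1, DHX58, TLR3 and STAT2. Of the 24 target genes, 12 are filled with CX3CL1 and 23 with IFN-γ. TLR7, TBK1, MAVS and the coactivators are open. The plotted fit has no replicate block.

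Of the 21 listed sensors, adaptors and kinases that activate the IRFs, 19 were tested, and 5 were called higher with CX3CL1 and 5 with IFN-γ, with none lower in either. Over all genes tested, 1.78% were called higher with CX3CL1 and 5.91% with IFN-γ. With the replicate block 8 of the list were called higher with IFN-γ, against 1353 of all 11878 genes tested. The list's median log2 fold change was 0.22 with CX3CL1 and 0.15 with IFN-γ. With CX3CL1 the cytosolic RNA sensors IFIH1 and DDX58 rose by 1.83 (adjusted p = 0.00103) and 1.70 (adjusted p = 1.3e-04) on the log2 scale. DHX58, which regulates them, rose by 1.83 (adjusted p = 0.00248) and the endosomal RNA sensor TLR3 by 1.57 (adjusted p = 0.0167). The other sensor genes tested were not called with either agent, with log2 fold changes for CX3CL1 and IFN-γ of 0.16 and 0.42 for the DNA sensor MB21D1, -0.03 and -0.32 for TLR4, and 0.06 and 0.13 for TLR7.

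With IFN-γ the same 4 sensor genes rose by 2.53 for DHX58, 2.40 for IFIH1, 2.26 for TLR3 and 2.09 for DDX58 on the log2 scale, all with an adjusted p of at most 4.2e-04. The adaptor MYD88 was the fifth gene called there, at 1.02 (adjusted p = 0.00167). The IRF kinase IKBKE rose with CX3CL1, by 1.05 (adjusted p = 0.0361), and its value with IFN-γ was 0.76 (adjusted p = 0.0689, and 0.00406 with the replicate block). The block also called the adaptors TMEM173 (0.49, adjusted p = 0.0595 without and 0.00118 with it) and TRAF3 (0.33, adjusted p = 0.116 without and 0.0278 with it) in that comparison. TBK1, the other IRF3 kinase, had 0.22 with CX3CL1 (adjusted p = 0.882) and 0.07 with IFN-γ (adjusted p = 0.806). When CX3CL1 was added to IFN-γ, 0 of the 19 genes were called by limma without the block and 1 with it, which was IKBKE (1.02, adjusted p = 0.146 without and 0.00555 with the block). Over all 11878 genes tested, 43 were called in that comparison without the block and 95 with it. When IFN-γ was added to CX3CL1, 4 of the 19 were called higher, against 3.76% of all genes tested. With the block 7 were called higher there, against 1035 of all genes tested.

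Of 12 listed partners and cofactors 8 were tested, and STAT2 was called higher with CX3CL1, with IFN-γ and when IFN-γ was added to CX3CL1. The shares of all genes tested that were called higher in these comparisons were 1.78%, 5.91% and 3.76%. The coactivators CREBBP and EP300, SPI1 and SPIB, and the corepressors IRF2BP1, IRF2BP2 and IRF2BPL were not called. With the replicate block SPIB was called with IFN-γ (0.45, adjusted p = 0.155 without and 0.0280 with it) and SPI1 when IFN-γ was added to CX3CL1 (0.44, adjusted p = 0.174 without and 0.0469 with it). BATF, BATF3, IKZF1 and IKZF3, which pair with IRF4 and IRF8 in lymphoid cells, were too low to be tested.

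Of the 18 type I interferon genes, 1 was high enough to be tested. This was IFNB1, the interferon-β gene that IRF3 and IRF7 induce, at 0.106, 0.0720 and 0 TPM without treatment and 0.568, 0.941 and 0.930 TPM with IFN-γ. The groups did not overlap and IFNB1 rose by 0.77 on the log2(TPM + 1) scale (adjusted p = 0.0116), at a level under 1 TPM throughout. With CX3CL1 it was at 0.199, 0 and 0.506 TPM (log2 fold change 0.20, adjusted p = 1.00). The summed level of all 18 genes was at most 0.242 TPM in untreated libraries, 0.324 to 0.791 TPM with CX3CL1, 0.568 to 1.15 TPM with IFN-γ and 0.373 to 1.46 TPM with both.

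Of 25 listed textbook target genes of the IRFs 24 were tested, and 12 were called higher with CX3CL1, 23 with IFN-γ, 1 when CX3CL1 was added to IFN-γ and 20 when IFN-γ was added to CX3CL1, with none lower. Of all genes tested, 1.78%, 5.91%, 0.345% and 3.76% were called higher in these comparisons. With the replicate block the target counts were 16, 23, 1 and 23, against 347, 1353, 89 and 1035 of all 11878 genes tested. The median log2 fold change of the targets was 1.33, 2.96, 0.26 and 1.63. With CX3CL1 the T cell chemokine CXCL10 rose by 3.10 (adjusted p = 0.0182), the guanylate-binding protein GBP2 by 2.82 (adjusted p = 0.00103), IFIT3 by 2.61 (adjusted p = 0.00356) and the ISG15 protease USP18 by 2.42 (adjusted p = 5.8e-04).

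With IFN-γ the largest called changes of the list were GBP2 at 5.44, IFIT3 at 4.997, the immunoproteasome subunit PSMB9 at 4.92 and CXCL10 at 4.76 on the log2 scale. NOS2, the inducible nitric oxide synthase, was the 1 target not called with IFN-γ (1.01, adjusted p = 0.366), and it was the 1 target called when CX3CL1 was added to IFN-γ. There it was at 2.29, 0.318 and 1.07 TPM with IFN-γ and at 39.4, 5.15 and 31.9 TPM with both, a log2 fold change of 3.28 (adjusted p = 0.0444). The NOS2 libraries of these groups did not overlap. IRF1, which is known to act at this gene, had the value of -0.21 given above in the same comparison. The activity of IRF1 was not measured, and its part in the NOS2 change was not tested.

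Libraries ranked alike across these genes. IFN-γ replicate 3 was the highest of its group for 21 of the 24 targets and replicate 3 with both agents for 22, and both were also the highest of their groups for IRF1, IRF5 and IRF7. CX3CL1 replicate 3 was the highest for 17. Replicate number and any day or culture behind it are not described in the labels, and their part in the levels was not tested.

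Other genes followed the same pattern over the libraries. Pearson's r of log2(TPM + 1) was computed over the 12 libraries with 10754 genes of at least 1 TPM in mean, for the 4 members called above, and is a description, since all genes share the libraries and their treatments. Closest to IRF1 were NLRC5, a transactivator of MHC class I genes (r = 0.990), RNF114 (0.987) and TAPBPL, a peptide editor of MHC class I (0.987). Closest to IRF5 were IFI205 (0.996), ZNFX1 (0.993) and TRIM30D (0.992).

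Closest to IRF7 were the antiviral membrane protein gene IFITM3 (0.996), the immunoproteasome subunit PSMB8 (0.989) and OAS1G (0.988), and closest to IRF9 were PHF11D (0.988), RTP4 (0.988) and SP100 (0.986). Mean levels show the scale of this likeness. IFITM3 went from 1159 TPM without treatment to 1876 TPM with CX3CL1, 3660 TPM with IFN-γ and 3708 TPM with both, and NLRC5 from 1.71 to 3.48, 13.7 and 14.8 TPM. Among the members themselves r was 0.961 between IRF1 and IRF5, 0.923 between IRF5 and IRF7, and 0.902 between IRF7 and IRF9.

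Positions in GENCODE on GRCm38 show where neighbouring genes could share reads. IRF1 lies at chr11:53770014-53778374, IRF5 at chr6:29526625-29541871, IRF7 at chr7:141262706-141266481 on the minus strand and IRF9 at chr14:55603571-55610030. On the opposite strand, IRF1 overlaps Gm17334 over 907 bases, IRF3 overlaps Bcl2l12 over 1065, IRF5 overlaps Tnpo3 over 1045 and IRF7 overlaps Phrf1 over 45. IRF2 overlaps the gene models Gm45479 over 1723 bases, Gm45481 over 877 and Gm31172 over 433, also on the opposite strand. IRF9 overlaps Rnf31 on the same strand over 123 bases, and the whole of IRF8, 20337 bases, lies within the same-strand gene model Gm20388, so the level of IRF8 is uncertain. The library kit is strand-specific, but the strand setting of the counting is not stated.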

How the data were processed

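RNA from CT26 cells was sequenced in 12 libraries, 3 in each of 4 groups taken from the labels. The authors made stranded libraries from mRNA, mapped the reads to mm10 and counted them per gene, and STAR 2.7.3a and DESeq2 1.22.1 are named in the submitters' processing notes. The deposited values are TPM. How the TPM were made, the annotation and the strand setting are not given in the sources used here. The results text and 1 treatment protocol of the study name TNF-α beside IFN-γ, while the labels name IFN-γ alone. Of the symbols, 26 were dates and 2 names occurred more than once.

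Linear models were fitted by limma 3.58.1 under R 4.3.3, using eBayes and its trend option, to log2 of TPM plus a pseudocount of 1. Genes had to average 0.2 TPM, which left 11878, and Benjamini-Hochberg adjustment ran over all of them, with calls under 0.05. The scripts were tested on simulated data with known changes. A count test was not used because counts were not analysed here. TPM hold no depth, so precision rests on the spread between replicates, which the fit pools over all groups.

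The replicate numbers were checked for pairing by correlating deviations from the group means. These were 0.387, 0.00472 and 0.301 between untreated and CX3CL1, 0.429, 0.460 and 0.220 between untreated and IFN-γ, 0.630, 0.635 and 0.649 between IFN-γ and both, and 0.351, 0.353 and 0.428 between CX3CL1 and both. The last 3 comparisons therefore count as paired by the data, with no label that says what a number marks, and the blocked value is given where it changes the call of a gene named in that comparison.

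Named genes were all members, up to 4 called genes of each list with the largest change in each comparison with no treatment, and the 3 most correlated genes of each called member. One gene of the list of partners was left out of all counts and is not reported here. NOS2, IKBKE with CX3CL1, MYD88, KRT18 and the genes described as not called were named after their values were seen. The members and lists were chosen with earlier results of these data known. Alternatives were other pseudocounts, filters and scalings, subsets of libraries, no trend, the block, and leaving out each library. Promoters are from RefSeq and positions from GENCODE vM21, both on GRCm38, the build that mm10 is made from.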

Additional observations from a re-analysis of the deposited data

How the results depend on the processing

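The calls of IRF1, IRF5, IRF7 and IRF9 with IFN-γ, of IRF9 with CX3CL1, and of IRF1, IRF5 and IRF7 when IFN-γ was added to CX3CL1 held in all 20 alternatives. Their log2 fold changes ranged from 1.95 to 2.49, 1.79 to 2.97, 3.29 to 4.45 and 1.03 to 1.23 with IFN-γ, from 0.71 to 0.90 with CX3CL1, and from 1.30 to 1.76, 1.24 to 1.89 and 2.13 to 2.44 in the last comparison. With CX3CL1, 2 members were called with only the libraries compared (IRF5 joined) and 2 with the replicate block (IRF7 joined, adjusted p = 0.0430), and 1 to 2 when a library was left out (IRF7 joined without untreated replicate 1). The adjusted p of IRF7 ran from 9.2e-04 to 0.344. Leaving out a library gave 4, 0, 3 and 0 members in the other comparisons.

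Genes called with the replicate block numbered 455 with CX3CL1, 1929 with IFN-γ, 95 when CX3CL1 was added to IFN-γ, 1369 when IFN-γ was added to CX3CL1 and 52 in the interaction, where IRF9 was the 1 member called (adjusted p = 0.0452). Every gene called without the block was called with it, and for IRF genes it changed no call beyond those named and that of IRF9 when IFN-γ was added to CX3CL1 (adjusted p = 0.0225). With only the libraries compared, 20 and 344 genes were called when CX3CL1 was added to IFN-γ and the reverse, the former being 28 with no filter on low TPM, and quantile normalization gave 1 gene in the interaction. Leaving out a library gave 152 to 268 genes with CX3CL1 (lowest without untreated replicate 3), 536 to 1499 with IFN-γ (536 without untreated replicate 3, 550 without IFN-γ replicate 3, 1499 without CX3CL1 replicate 2), 16 to 54 when CX3CL1 was added (16 to 26 without IFN-γ replicate 1, 2 or 3, or without replicate 1 or 3 of both), 268 to 667 when IFN-γ was added (lowest without replicate 3 of both) and 0 to 11 in the interaction (11 without untreated replicate 1, 1 without replicate 2 of both). CX3CL1 replicate 2 is outside the IFN-γ comparison and enters it through the spread pooled over all groups and the choice of genes tested. The cause of these shifts was not tested.

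Signs turned for values that were not called. IRF8 was -0.0594 with quantile normalization in the IFN-γ comparison, and -0.0145 with a pseudocount of 0.1, -0.0227 with median-ratio scaling and -0.11 with quantile normalization when IFN-γ was added to CX3CL1. In the interaction IRF2 was -0.0030 and IRF3 -0.0239 with median-ratio scaling. With a library left out, IRF8 ran from -0.0299 to 0.16 with IFN-γ, from -0.0698 to 0.15 when CX3CL1 was added, from -0.10 to 0.12 when IFN-γ was added and from -0.16 to 0.0614 in the interaction. IRF7 ran from -0.0630 to 0.0798 and IRF1 from -0.47 to 0.15 when CX3CL1 was added, IRF3 from -0.14 to 0.0722 when IFN-γ was added and from -0.0833 to 0.13 in the interaction, and IRF2 from -0.10 to 0.19 there. IRF8 was not tested with a mean of at least 1 TPM, and the interaction could not be fitted with only the libraries compared. With 3 replicates and no depth in TPM, small changes of IRF2, IRF3 and IRF8 are not resolved.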
